A study of Mus musculus with 21 samples.

Results

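Lysosomal proteolysis was followed through 10 genes of the mouse: the cathepsins Ctsa, Ctsb, Ctsc, Ctsd, Ctsh, Ctsl, Ctss and Ctsz, the asparaginyl endopeptidase legumain (Lgmn), and cystatin C (Cst3), a secreted inhibitor of cysteine cathepsins. They were chosen by name, 10 of 54123 genes with transcripts in the deposited tables, and the reads of each gene were added over its transcripts. The study used wild-type male C57BL/6 mice aged 8 to 12 weeks and asked how remote ischemic preconditioning (RIPC) changes the response of the kidney to ischemia-reperfusion injury (IRI). RIPC was 3 inflations of a hind limb cuff of 5 minutes each before surgery, and the control procedure was a cuff at low pressure. IRI was clamping of both renal pedicles for 32 minutes, and sham surgery left the clamps out. Cells were isolated 24 hours after surgery: neutrophils, labelled PMNs and blood, and renal tubular epithelial cells, labelled TECs. The 21 libraries formed 8 groups, with 2 libraries each in PMNs Sham Control, PMNs IRI Control and TECs IRI Control, and 3 each in PMNs Sham RIPC, PMNs IRI RIPC, TECs Sham Control, TECs Sham RIPC and TECs IRI RIPC. All mice carried the same genotype, so no group differed in an allele. The replicates were biological replicate libraries, but whether each came from 1 mouse or a pool is not given in the sources used here.

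Cathepsins are proteases of the endosome and lysosome that are made as inactive precursors and matured at acid pH. Cathepsins B, C, H, L, S and Z and legumain are cysteine proteases, cathepsin D is an aspartic protease, and cathepsin A is a serine carboxypeptidase that also protects the sialidase neuraminidase 1 (Neu1) and beta-galactosidase in a lysosomal complex. The proximal tubule takes up filtered proteins by endocytosis and degrades them in lysosomes. In leukocytes, cathepsin S trims the invariant chain during antigen presentation and cathepsin C activates the serine proteases of neutrophil granules. Many lysosomal genes share a promoter element, the target of transcription factor EB, whose core is read here as TCACGTG.

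The promoter windows of the genes on which the results turn are shown because members of this family differ in that element. RefSeq windows of 300 bases (250 before to 50 after the start of the gene, build GRCm38.p6) were held for 8 of the 10 members, in 10 windows, and none was held for Ctsb or Ctsh. Capitals mark TCACGTG on either strand. The element is close to its own reverse complement, so that TCACGTGA is a match on both strands and is shown as a single run of capitals. The windows are printed 5′ to 3′ along the gene.
Ctsa, chr2:164833523-164833822, plus strand: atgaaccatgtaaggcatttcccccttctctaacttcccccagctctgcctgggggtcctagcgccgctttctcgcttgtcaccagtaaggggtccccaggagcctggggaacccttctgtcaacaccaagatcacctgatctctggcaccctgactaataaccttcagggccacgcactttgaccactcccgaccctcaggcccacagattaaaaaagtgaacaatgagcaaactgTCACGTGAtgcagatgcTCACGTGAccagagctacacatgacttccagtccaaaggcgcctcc
Ctsd, chr7:142387778-142388077, minus strand: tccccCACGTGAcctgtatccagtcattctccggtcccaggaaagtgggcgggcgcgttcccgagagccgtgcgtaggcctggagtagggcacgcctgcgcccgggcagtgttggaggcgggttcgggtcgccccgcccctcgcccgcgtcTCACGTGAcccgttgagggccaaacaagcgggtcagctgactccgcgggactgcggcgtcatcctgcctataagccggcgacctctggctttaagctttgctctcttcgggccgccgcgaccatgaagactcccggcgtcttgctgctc
Cst3, chr2:148875463-148875762, minus strand: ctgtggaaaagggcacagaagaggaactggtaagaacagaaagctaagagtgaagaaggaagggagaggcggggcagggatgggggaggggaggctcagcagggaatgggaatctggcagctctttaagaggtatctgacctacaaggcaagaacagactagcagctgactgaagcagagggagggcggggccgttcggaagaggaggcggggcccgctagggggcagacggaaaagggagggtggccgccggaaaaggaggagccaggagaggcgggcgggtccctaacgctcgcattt
Ctss, chr3:95526536-95526835, plus strand: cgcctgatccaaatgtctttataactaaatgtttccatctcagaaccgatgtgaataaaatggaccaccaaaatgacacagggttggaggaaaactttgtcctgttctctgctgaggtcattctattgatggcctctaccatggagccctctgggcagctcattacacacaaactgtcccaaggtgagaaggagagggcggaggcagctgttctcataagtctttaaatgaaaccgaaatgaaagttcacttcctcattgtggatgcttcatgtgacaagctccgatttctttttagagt
The letters were present in windows of 3 members, Ctsa, Ctsd and Lgmn, and absent from those of Cst3, Ctss, Ctsc, Ctsl and Ctsz. The Lgmn match lies in chr12:102439043-102439342, whose downstream end was found in no transcript of the annotation used here, and the other Lgmn window, chr12:102439679-102439978, had no match. Of all 32851 windows in the table, 1237 (3.77%) held them. A second Ctsa window, chr2:164832622-164832921, had no match. A match of letters is a description of the window and not a site of binding.

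The libraries held 20881334 to 51624602 estimated reads each. Levels are given in CPM, read counts scaled to the normalized size of each of the 21 libraries. Levels of different genes are compared only as per-length levels, which are reads divided by effective transcript length and scaled to the same sum in each library. All 10 members passed the filter on low counts in both cell types, and 9 or 10 of them had reads in each library. The deposited tables came as 2 files a library, whose counts differed by less than sampling noise (median chi-square of 0.0129 to 0.0658, against 0.455 for independent files), so adding them doubles the counts without adding information. Summed neutrophil markers (8 genes) reached 5968 to 32311 CPM in PMNs and 1.61 to 111 CPM in TECs. The PMN libraries, although labelled blood, also held RNA of monocytes and macrophages and of the proximal tubule, and both were higher after sham surgery. The 10 monocyte and macrophage markers summed to 3077 to 9608 CPM in sham PMNs and 1014 to 2104 CPM in IRI PMNs, and the 8 proximal tubule markers to 1223 to 10667 and 517 to 912 CPM. Among these 8, Kap had the highest median in PMNs, 3977 CPM after sham surgery and 364 CPM after IRI. The next, Slc34a1, had medians of 477 and 103 CPM. In TECs, the proximal tubule markers summed to 8200 to 15988 CPM after sham surgery and 2523 to 7515 CPM after IRI. The 3 tubular injury markers (Havcr1, Lcn2 and Krt20) summed to 970 to 1779 CPM in IRI TECs and 0 to 2.22 CPM in 5 of the 6 sham TEC libraries. A pair of TEC libraries stood apart. TECs Sham Control replicate 1 held 145 CPM of injury markers, and TECs IRI RIPC replicate 3 held 7515 CPM of proximal tubule markers, where the other 4 IRI libraries reached 3500 at most.

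**Figure D1:**
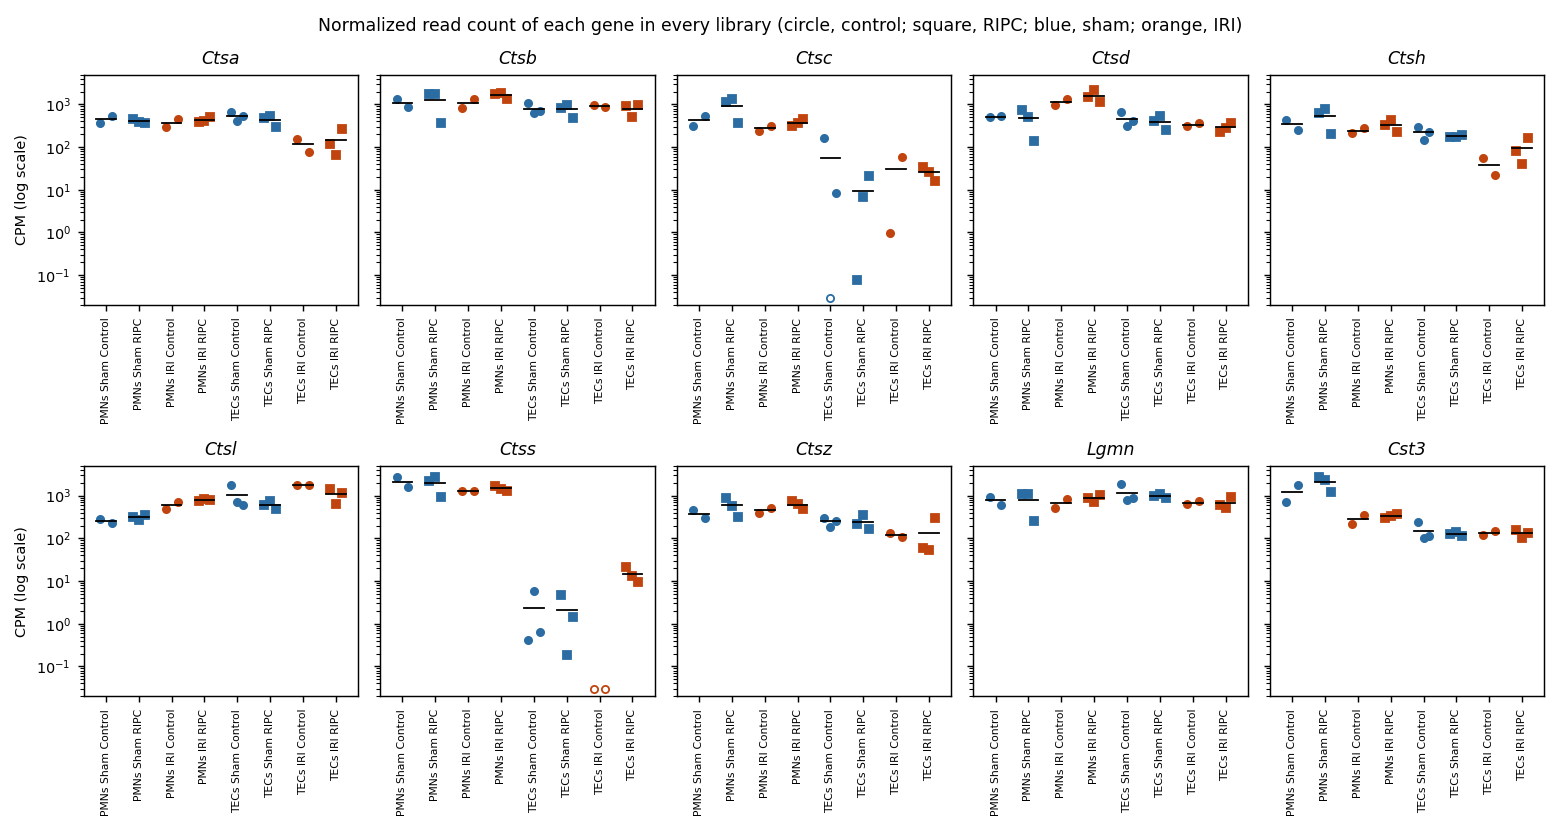
Normalized read count in CPM (vertical axis, log scale) of each of the 10 genes in every library, by group on the horizontal axis. Circles are control and squares RIPC libraries, blue is sham and orange IRI, bars are group means, and open symbols at the bottom stand for 0 reads. Ctss lay between 912 and 2780 CPM in the PMN libraries and at 21.3 CPM or less in the TEC libraries.

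In tubular epithelial cells, cathepsin A RNA was lower after IRI. Ctsa (ENSMUSG00000017760.16, chr2:164832873-164841032 on GRCm38) was at 648, 419 and 529 CPM in TECs Sham Control and at 480, 521 and 297 CPM in TECs Sham RIPC. After IRI it was at 156 and 75.9 CPM in control mice and at 120, 66.2 and 262 CPM in RIPC mice. Every IRI library lay below every sham library, although TECs IRI RIPC replicate 3 at 262 CPM came close to the lowest sham library at 297 CPM. Averaged over the control and RIPC groups, Ctsa fell by 1.91 on the log2 scale (SE 0.41, a 3.75-fold decrease, adjusted p = 0.0376, edgeR quasi-likelihood test with Benjamini-Hochberg adjustment, n = 5 IRI and 6 sham libraries). It was the only member called among 10, where 363 of 25917 genes (1.40%) were called. It was also the only member whose groups did not overlap, against 4.61% of all genes tested. The call rested on most of the libraries, since the adjusted p rose above 0.05 for 8 of the 11 TEC libraries when each was left out in turn (all 6 sham libraries, TECs IRI Control replicate 2 and TECs IRI RIPC replicate 1), with log2 differences of -2.22 to -1.71 over the 11. With both libraries that stand apart left out together, a setting chosen after the marker levels were seen, the adjusted p was 0.00877 by edgeR. The call was also lost in the control groups alone (-2.25, adjusted p = 0.318, edgeR) and in the RIPC groups alone (-1.56, adjusted p = 0.430, edgeR).

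Cathepsin H, an aminopeptidase, missed the threshold in TECs. Ctsh was at 288, 150 and 231 CPM in TECs Sham Control and 172, 171 and 197 CPM in TECs Sham RIPC, and at 54.9 and 22.0 CPM in TECs IRI Control and 79.0, 39.3 and 165 CPM in TECs IRI RIPC. TECs IRI RIPC replicate 3, the library with the high proximal tubule markers, was again the highest of the IRI libraries and the only IRI library within the sham range. The log2 difference of Ctsh was -1.77 (SE 0.45, adjusted p = 0.0753, edgeR). It passed without both libraries that stand apart (-1.93, adjusted p = 0.0337, edgeR). That setting was chosen after the marker levels were seen and drops the IRI library within the sham range. Cathepsin Z, a carboxypeptidase, had the same library out of line: Ctsz was at 54.3 to 137 CPM in 4 IRI libraries and 297 CPM in TECs IRI RIPC replicate 3, against 165 to 351 CPM after sham surgery (log2 difference -0.97, SE 0.48, adjusted p = 0.354, edgeR). Legumain had a smaller difference in the same direction (log2 difference -0.69, SE 0.31, adjusted p = 0.313, edgeR), from a median of 942 CPM after sham surgery to 622 CPM after IRI.

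Cathepsin L, an endopeptidase that is the most abundant member in TECs, differed the other way (6.46% of its 50-base stretches also occur in other genes). Ctsl was at 613, 696 and 1779 CPM in TECs Sham Control, 489 to 743 CPM in TECs Sham RIPC, 1783 and 1786 CPM in TECs IRI Control and 626 to 1467 CPM in TECs IRI RIPC. The groups overlapped through TECs Sham Control replicate 1 at 1779 CPM, which also held the injury markers, and TECs IRI RIPC replicate 2 at 626 CPM. The log2 difference of Ctsl was 0.77 (SE 0.33, adjusted p = 0.302, edgeR) over all libraries, and 1.17 (adjusted p = 0.0430, edgeR) without both libraries that stand apart. That setting was chosen after the marker levels were seen and drops the sham library at 1779 CPM. Ctsb, Ctsd and Cst3 differed by 0.11, -0.46 and -0.09 on the log2 scale (SE 0.31, 0.33 and 0.36), with adjusted p of 0.572 or more by edgeR. Ctsc ranged from 0 to 162 CPM in sham TECs, the highest again in TECs Sham Control replicate 1, and from 0.995 to 59.2 CPM in IRI TECs. Ctss was near the detection limit, with 5 to 234 reads in sham TECs and 0 to 554 reads in IRI TECs (adjusted p = 0.336, edgeR).

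The other lysosomal genes gave 3 calls of 58 tested in the same fit, from a list of 71, beside 1.40% of all genes. The count was 6 without TECs IRI Control replicate 1 or TECs IRI RIPC replicate 3, and 0 in the control groups alone and in the RIPC groups alone. Neu1, the partner of cathepsin A in the lysosome, fell by 2.38 on the log2 scale (SE 0.43, adjusted p = 0.0164, edgeR), from 345 to 911 CPM in sham TECs to 52.6 to 212 CPM in IRI TECs. Atp6v1a, the catalytic subunit of the proton pump that acidifies lysosomes, fell by 2.33 (SE 0.39, adjusted p = 0.0123, edgeR), from 150 to 421 CPM to 32.8 to 127 CPM. Cstb, the intracellular cathepsin inhibitor stefin B, rose by 2.10 (SE 0.35, adjusted p = 0.0108, edgeR), from 60.1 to 163 CPM to 282 to 588 CPM. None of these 3 genes overlapped between sham and IRI libraries, where 4.61% of all genes tested did not overlap. Being called makes that likely, and some genes of the list that were not called did not overlap either. The Atp6v1a promoter window held the TCACGTG letters and the Neu1 window did not. The median log2 difference was -0.58 over the members and -0.72 over the 58 other lysosomal genes, beside 0.15 over all genes tested. That last value moved to 0.28 with DESeq2 size factors in place of edgeR's scaling, a shift of the whole scale of the TECs. The proximal tubule markers fell with Ctsa, Ctsh, Neu1 and Atp6v1a: 5 of their 8 genes were called lower and their median log2 difference was -2.22. In bulk samples, fewer cells of a type and less RNA per cell cannot be told apart, and the part of tubule cell makeup in these differences was not tested.

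**Figure D2:**
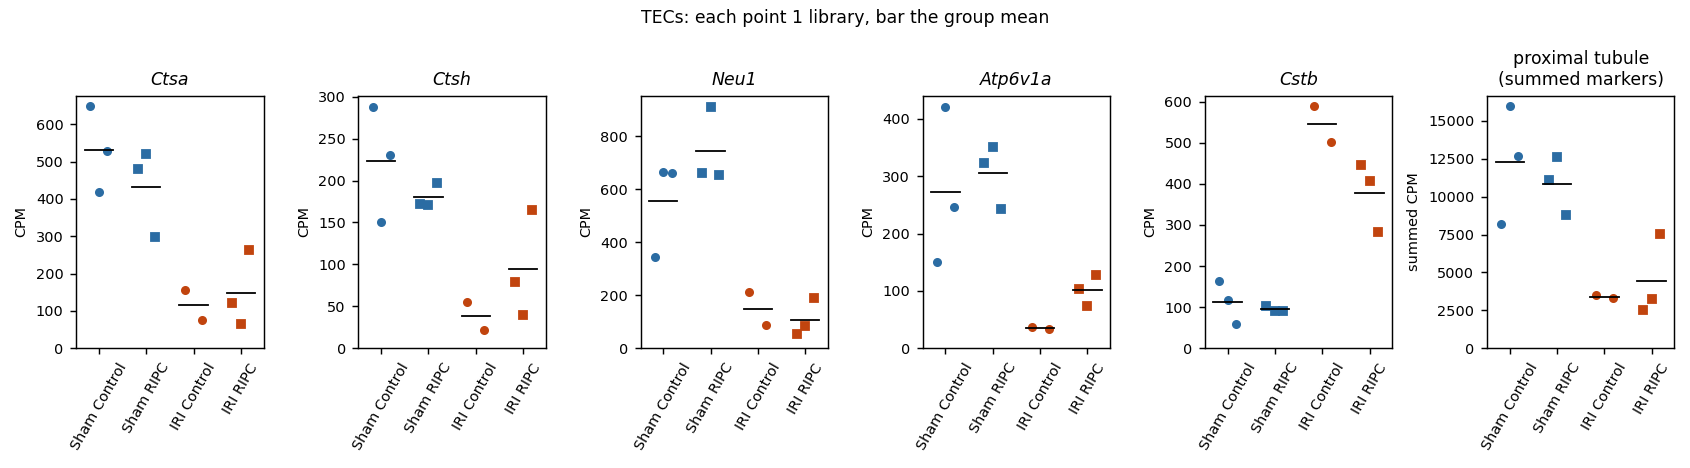
CPM of Ctsa, Ctsh, Neu1, Atp6v1a and Cstb and the summed CPM of 8 proximal tubule markers (vertical axes, linear from 0) in the 11 TEC libraries, by group; circles are control, squares RIPC, blue sham and orange IRI, with bars at group means. Ctsa, Neu1, Atp6v1a, Cstb and the marker sum separate sham from IRI libraries, although 1 IRI RIPC library comes close in the marker sum at 7515 CPM, and that library overlaps the sham range in Ctsh at 165 CPM.

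In PMNs, cystatin C RNA was lower after IRI. Cst3 (ENSMUSG00000027447.6, chr2:148871722-148875692) was at 716 and 1752 CPM in PMNs Sham Control and at 2684, 2385 and 1188 CPM in PMNs Sham RIPC. After IRI it was at 221 and 352 CPM in control mice and at 304, 343 and 365 CPM in RIPC mice. The IRI libraries lay close together and all below the lowest sham library. Cst3 fell by 2.38 on the log2 scale (SE 0.35, a 5.22-fold decrease, adjusted p = 0.0294, edgeR, n = 5 IRI and 5 sham libraries). It was the only member called of 10, beside 104 of 25002 genes (0.416%). The adjusted p rose above 0.05 for 7 of the 10 libraries when each was left out in turn (all 5 IRI libraries and PMNs Sham RIPC replicates 1 and 2), with log2 differences of -2.62 to -1.93 over the 10. The call was also lost in the control groups alone (-2.11, adjusted p = 0.736, edgeR) and in the RIPC groups alone (-2.65, adjusted p = 0.0595, edgeR). The summed level of the monocyte and macrophage markers was lower too, with all 10 found, at 3077 to 9608 CPM after sham surgery and 1014 to 2104 CPM after IRI. Within the sham PMNs the libraries richest in Cst3, PMNs Sham RIPC replicates 1 and 2, also held the highest marker sums, 8401 and 9608 CPM. Other libraries went the other way. PMNs Sham RIPC replicate 3 had the lowest sham sum, 3077 CPM, but more Cst3 than PMNs Sham Control replicate 1, at 4475 CPM. PMNs IRI RIPC replicate 3 had the most Cst3 of the IRI libraries and the lowest sum, 1014 CPM. The sum was carried by the complement genes C1qa, C1qb and C1qc, with medians of 1193, 1846 and 1142 CPM after sham surgery and 272, 454 and 26.2 CPM after IRI. The receptor Csf1r had medians of 341 and 340 CPM, and the monocyte genes Ccr2 and Ly6c2 had medians of 111 and 138 CPM and of 91.7 and 159 CPM. In all, 8 of the 10 markers had a negative log2 difference, 4 of them without overlap, and none was called. Their part in the Cst3 difference was not tested.

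Cathepsins L and D were the other members whose PMN libraries did not overlap between surgeries. Ctsl was at 284 and 230 CPM in PMNs Sham Control, 324, 266 and 347 CPM in PMNs Sham RIPC, 501 and 719 CPM in PMNs IRI Control, and 733, 840 and 778 CPM in PMNs IRI RIPC. Every IRI library lay above every sham library, and the log2 difference was 1.27 (SE 0.22), with an adjusted p of 0.0520 by edgeR that just missed the threshold. It passed under 8 of 22 alternative settings, among them DESeq2 and either file of each library alone. Ctsd, the main aspartic protease of the lysosome, was at 494 and 529 CPM in PMNs Sham Control, 747, 519 and 139 CPM in PMNs Sham RIPC, 948 and 1340 CPM in PMNs IRI Control and 1483, 2126 and 1154 CPM in PMNs IRI RIPC. The sham libraries spread widely, with PMNs Sham RIPC replicate 3 at 139 CPM far below the rest, and the log2 difference of 1.44 (SE 0.42) had an adjusted p of 0.278 by edgeR. In all, 3 of 10 members did not overlap between sham and IRI PMNs, beside 5.51% of all genes tested. Ctsd shares 32.4% of its 50-base stretches with the read-through transcript Gm49369, which had 0 reads in 20 libraries and 5 in the other, so almost none of its estimated reads were assigned away. Neutrophil markers summed to 5968 to 25173 CPM in sham and 12311 to 32311 CPM in IRI PMNs, with overlap. All 8 markers had a positive log2 difference, with a median of 1.42, and none was called. Cxcr2, a chemokine receptor of neutrophils, did not overlap, at 30.6 to 282 CPM after sham surgery and 541 to 894 CPM after IRI. S100a8, S100a9 and Ly6g differed by only 0.03, 0.31 and 0.22 on the log2 scale (SE 0.35, 0.33 and 0.59). The marker differences thus had the sign of those of Ctsl and Ctsd but ranged widely in size. The part of neutrophil content in the Ctsl and Ctsd differences was not tested.

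The other 7 members overlapped between sham and IRI PMNs, and none of them was called. Ctsc, the activator of granule proteases, was at 313 to 1308 CPM after sham surgery and 237 to 454 CPM after IRI (means 734 and 336 CPM, adjusted p = 0.400, edgeR), and the 2 highest values were those of PMNs Sham RIPC replicates 1 and 2, which held the most macrophage markers. Among the IRI libraries the highest value, 454 CPM, was that of PMNs IRI RIPC replicate 3, which had the lowest sum of those markers. Ctss was at 912 to 2780 CPM and 1266 to 1707 CPM (-0.59, SE 0.31), and Ctsh at 205 to 769 CPM and 212 to 424 CPM (-0.60, SE 0.40). Ctsa, Ctsb, Ctsz and Lgmn differed by -0.11 to 0.16 on the log2 scale. PMNs Sham RIPC replicate 3 was the lowest sham library for Ctsb, Ctsd, Ctsh, Ctss and Lgmn. None of the 65 other lysosomal genes tested was called by edgeR. At an unadjusted p under 0.05 by edgeR there were 14 of the 65, beside 2958 of all 25002 genes tested. The median log2 difference of the 65 was 0.68, beside -0.08 for the members and -0.01 for all genes tested.

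**Figure D3:**
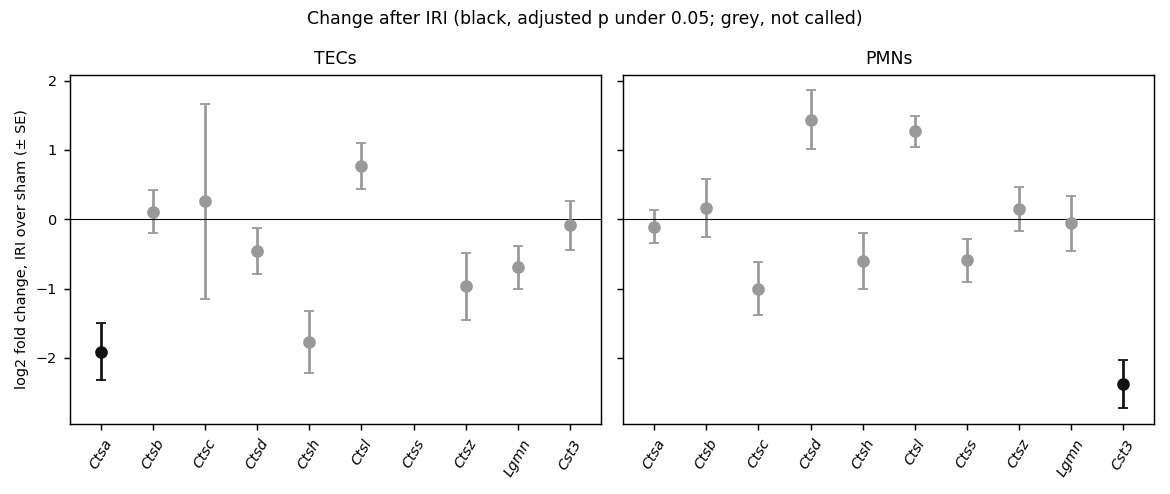
Log2 fold change of IRI over sham (vertical axis, ± SE) for each gene (horizontal axis) in TECs on the left and PMNs on the right; black marks an adjusted p under 0.05 and grey the rest. Ctsa in TECs (-1.91) and Cst3 in PMNs (-2.38) are the black points; Ctss in TECs is not drawn because both IRI control libraries were at 0 reads.

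Whether the IRI effect differed between the cell types was tested by the interaction of cell type and surgery. No member passed by edgeR, where 0 of 31769 genes (0%) passed and 3102 had an unadjusted p under 0.05. Cst3 had the smallest p, with an IRI effect lower in PMNs than in TECs by 2.30 on the log2 scale (SE 0.54, unadjusted p from the edgeR fit 3.46e-04, adjusted p = 0.157), and Ctsd and Ctsa differed by 1.90 and 1.77 (SE 0.59 and 0.58, adjusted p = 0.290 and 0.313, edgeR). DESeq2, and edgeR with a filter of at least 10 reads in every library, called these 3 members. The shift of Ctsa in TECs and of Cst3 in PMNs is therefore not shown to be particular to its cell type by the edgeR fit.

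**Figure D4:**
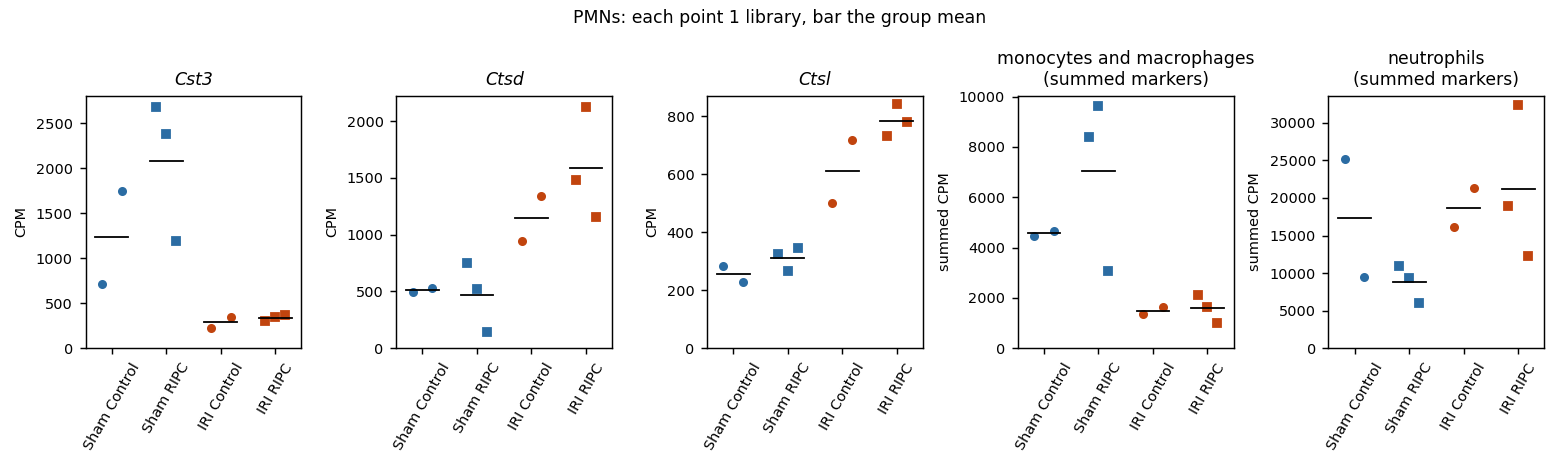
CPM of Cst3, Ctsd and Ctsl and the summed CPM of monocyte and macrophage and of neutrophil markers (vertical axes, linear from 0) in the 10 PMN libraries, by group; circles are control, squares RIPC, blue sham and orange IRI, with bars at group means. Cst3 and the summed macrophage markers are lower in all 5 IRI libraries, and Ctsd and Ctsl are higher in all 5.

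RIPC was compared with the control procedure within each cell type and surgery, the comparison for which the study was designed. No member passed by edgeR in any of the 4 comparisons. The background was as low: 0 of 25917 genes (0%) passed in sham TECs, 1 (0.00386%) in IRI TECs, 1 of 25002 (0.00400%) in sham PMNs and 0 (0%) in IRI PMNs. The study itself reported genes regulated by RIPC in each of these 4 comparisons, with DESeq2 and a different threshold. At an unadjusted p under 0.05 there was 1 member, Ctss in IRI TECs, and none in the other 3 comparisons. Of all 25917 genes tested in TECs, 1128 reached that level after IRI and 1175 after sham surgery. Of all 25002 in PMNs, 680 did so after IRI and 1150 after sham surgery. The interaction of RIPC with surgery also called no member and no gene in TECs or PMNs (0% in both). Ctss in TECs was again the only member at an unadjusted p under 0.05, beside 1869 of all genes tested in TECs and 1434 in PMNs. Members whose RIPC and control libraries did not overlap numbered 0 in sham TECs (7.81% of all genes tested), 2 in IRI TECs (16.8%), 0 in sham PMNs (12.7%) and 3 in IRI PMNs (16.4%).

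Cathepsin S in IRI TECs showed the widest gap. Ctss (ENSMUSG00000038642.10, chr3:95526786-95556403) had 0 reads in both TECs IRI Control libraries and 554, 319 and 203 reads, or 21.3, 13.5 and 9.37 CPM, in TECs IRI RIPC. A count of 0 allows up to 3 reads in a file, which is 6 reads over both near-identical files of a library, or 0.239 and 0.275 CPM here, so the RIPC mean was at least 53.6-fold higher than that floor, which covers counting error alone. Sham TECs had 10, 234 and 17 reads in the control group and 127, 5 and 33 reads in the RIPC group; libraries of the same group were far apart. The adjusted p was 0.778 by edgeR, while DESeq2 called the difference. Because the control libraries were at 0, its fitted fold changes depend on the small count added by the fit and are not given. Cathepsin S is abundant in macrophages, whose markers summed to 10.7 and 40.3 CPM in TECs IRI Control and to 41.0, 34.6 and 22.6 CPM in TECs IRI RIPC. The neutrophil markers summed to 61.8 and 84.6 CPM and to 111, 63.7 and 34.5 CPM in the same libraries, and IRI PMNs held 1266 to 1707 CPM of Ctss. The part of other cells in the Ctss reads was not tested.

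The remaining differences between RIPC and control were small beside their errors. In IRI TECs, Ctsl was at 626 to 1467 CPM with RIPC and 1783 and 1786 CPM without (log2 difference -0.73, SE 0.50, adjusted p = 0.779, edgeR), and Ctsh was at 39.3 to 165 CPM and 22.0 and 54.9 CPM (1.31, SE 0.67, adjusted p = 0.778, edgeR). In sham PMNs, Cst3 had a mean of 2086 CPM with RIPC and 1234 CPM without (0.73, SE 0.47), and Ctsc of 936 and 431 CPM (1.10, SE 0.55, adjusted p = 0.705 for each, edgeR). In IRI PMNs all 10 members had a higher mean with RIPC, with log2 differences of 0.16 to 0.52, each smaller than or close to its SE of 0.30 to 0.60. The median over the members was 0.35 and that over all genes 0.00. Without PMNs IRI Control replicate 1 the sign held for 8 of the 10.

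Compared across cell types, cathepsin S and cystatin C set PMNs apart from TECs. After sham surgery Ctss averaged 2030 ± 790 CPM in PMNs (SD, n = 5) and 2.23 ± 2.46 CPM in TECs (SD, n = 6), a ratio of 912, with an adjusted p of 4.79e-06 by edgeR. Cst3 averaged 1745 ± 815 CPM in PMNs and 140 ± 50.8 CPM in TECs, which is 3.53 higher on the log2 scale (SE 0.39, adjusted p = 1.90e-05, edgeR). Ctsl was the member lower in PMNs, at 230 to 347 CPM against 489 to 1779 CPM in TECs (log2 difference -1.48, SE 0.36, adjusted p = 0.0280, edgeR). The Ctsl call was lost without PMNs Sham Control replicate 1 or 2, TECs Sham Control replicate 1 or TECs Sham RIPC replicate 2 (log2 differences of -1.71 to -1.16 with 1 library left out, adjusted p of at most 0.123, edgeR), and with the compared groups alone. These were 3 calls of 10 members, beside 2.62% of 31769 genes, and 4 members did not overlap between cell types, beside 7.52%. Ctsc was the member that did not overlap and was not called, at 313 to 1308 CPM in PMNs and 0 to 162 CPM in TECs (adjusted p = 0.0593, edgeR). Sham PMNs also held 3077 to 9608 CPM of macrophage markers and 1223 to 10667 CPM of proximal tubule markers. The share of the member levels in PMNs that belongs to neutrophils was not tested.

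After IRI the same comparison called 5 members, all higher in PMNs, beside 2.67% of all genes. Ctss was at 1266 to 1707 CPM in PMNs and 0 to 21.3 CPM in TECs (adjusted p = 2.37e-05, edgeR). Ctsd, at 948 to 2126 CPM against 227 to 371 CPM, was higher by 2.10 on the log2 scale (SE 0.44, adjusted p = 0.0108, edgeR). Ctsh was higher by 2.23 (SE 0.52, adjusted p = 0.0201, edgeR), Ctsz by 2.04 (SE 0.51, adjusted p = 0.0328, edgeR) and Ctsa by 1.61 (SE 0.43, adjusted p = 0.0488, edgeR). The groups of 7 members did not overlap, beside 6.89% of all genes, and the 2 that were not called were Cst3, at 221 to 365 CPM against 102 to 157 CPM (log2 difference 1.23, adjusted p = 0.122, edgeR), and Ctsc (3.53, adjusted p = 0.255, edgeR). The call on Ctsa was the least firm and was lost under 21 of 31 alternatives. Without either TECs IRI Control library, Ctss was the only member called, and 2 or 3 members were called without PMNs IRI Control replicate 1 or 2, PMNs IRI RIPC replicate 1, TECs Sham RIPC replicate 1, or TECs IRI RIPC replicate 1 or 2.

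Other genes of the lysosome differed between the cell types in both directions. After sham surgery 10 of 67 tested were called, beside 2.62% of all genes, 7 higher and 3 lower in PMNs. The 4 higher with the smallest p were Cd68, a lysosomal membrane protein of phagocytes, at 108 to 466 CPM in PMNs and at most 0.114 CPM in TECs, Stfa2l1, a stefin of myeloid cells at 12.5 to 18.4 CPM in PMNs and 0 reads in TECs whose reads are uncertain because its family holds near-identical copies, Slpi, an inhibitor of granule serine proteases, and Lyz2, lysozyme. The 3 lower were Lipa, the lysosomal acid lipase (-2.44, SE 0.51, adjusted p = 0.00931, edgeR), Atp6v1b2, a proton pump subunit (-2.84, SE 0.59, adjusted p = 0.00955, edgeR), and Neu1 (-2.29, SE 0.49, adjusted p = 0.0108, edgeR). After IRI 7 were called, beside 2.67% of all genes, and 12 without PMNs Sham Control replicate 1 or 2. Of the 7, 6 were higher in PMNs, among them Stfa2l1, Cd68, Ppt1, a lysosomal thioesterase (3.90, SE 0.71, adjusted p = 0.00372, edgeR), and Grn, the granulin precursor (2.08, SE 0.43, adjusted p = 0.00938, edgeR). The tetraspanin Cd63 was lower (-1.73, SE 0.35, adjusted p = 0.00730, edgeR).

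The order of the members within a group was read from per-length levels. In PMNs Sham Control and PMNs Sham RIPC, Cst3 led with a mean of 1277 and 2088 and Ctss followed with 1092 and 922. Both pairs overlapped between libraries, so their order is not separated. In PMNs Sham Control, Cst3 made up 33.8% and Ctss 29.0% of the summed level of the 10 members. In PMNs IRI Control and PMNs IRI RIPC, Ctss led with 631 and 700, above all other members in every library, and Ctsl came second with 341 and 431, level with Ctsd or Cst3 within the spread. Ctsc was the lowest member in 3 of the 4 PMN groups.

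In all 4 TEC groups Ctsl led, followed by Lgmn and then Ctsb. Ctsl had a mean per-length level of 489 in TECs Sham Control, 307 in TECs Sham RIPC, 722 in TECs IRI Control and 500 in TECs IRI RIPC, and it made up 31.5%, 23.9%, 56.7% and 44.2% of the summed level of the 10 members. After sham surgery Ctsl and Lgmn overlapped between libraries and after IRI they did not. Ctsa was number 4 in the order after sham surgery, with 148 and 134, and number 7 in TECs IRI Control and 8 in TECs IRI RIPC, with 25.3 and 32.2. The summed per-length level of all 10 members was 2335 to 6040 in sham PMNs and 2245 to 3181 in IRI PMNs, and 1090 to 2069 in sham TECs and 835 to 1474 in IRI TECs, with overlap between sham and IRI in each cell type.

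**Figure D5:**
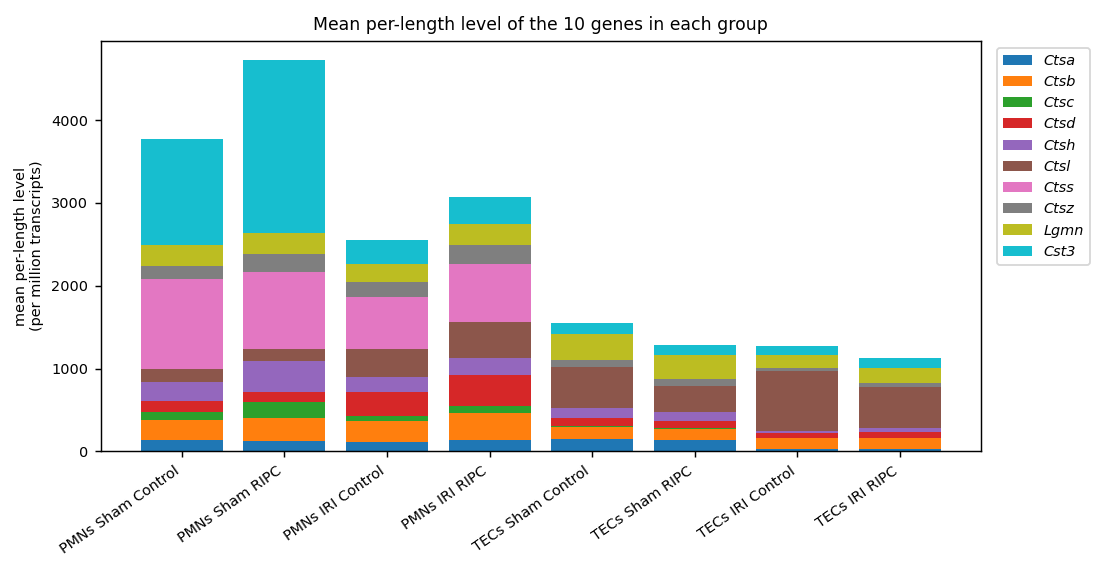
Mean per-length level of the 10 genes (vertical axis, reads per effective length, scaled to the same sum in each library, linear from 0) stacked for each of the 8 groups (horizontal axis), 1 colour a gene. Cst3 takes 33.8% of the bar in PMNs Sham Control and 11.4% in PMNs IRI Control, and Ctsl 31.5% in TECs Sham Control and 56.7% in TECs IRI Control.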

How the data were processed

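Poly(A)-primed cDNA was amplified and read from a single end over 50 bases. The authors trimmed reads with Trim Galore 0.6.4 and quantified transcripts with Salmon 1.0.0 (per the labels, build mm10). The deposited tables give estimated counts and TPM per transcript, in 2 files a library. TPM as deposited was not used. Transcripts were matched to Gencode M21 (GRCm38): 139864 of 140748 matched, and the unmatched ones held 0.139 to 0.255% of reads. Estimated counts were added over the transcripts of a gene and over both files and rounded, and 3717 genes of the sex chromosomes and mitochondria were left out.

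Tests used edgeR 4.0.16 under R 4.3.3 (quasi-likelihood, TMM scaling, filterByExpr), with 1 fit for each cell type over its 4 groups and 1 fit to all 21 libraries for comparisons of cell types. IRI was compared with sham as the mean of the control and RIPC contrasts. An adjusted p under 0.05 (Benjamini-Hochberg over all genes tested) was called. The fits recovered large changes put into simulated counts. The simulated spread was smaller than the common spread fitted to these libraries, so this does not show the power of the tests here. DESeq2 1.42.0, apeglm 1.24.0 (s value under 0.01), other scalings, filters, single files, a replicate block and single libraries left out were tried as alternatives. Small groups limit the precision. All 10 members were tested in every comparison, and members not named for a comparison were not called in it by edgeR. Of the other lysosomal genes, up to 4 called in each direction with the smallest adjusted p were named. The members and lists were chosen with earlier results of these data known.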

Additional observations from a re-analysis of the deposited data

How the results depend on the processing

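The count of members called was within 1.5 times of the reported count under all alternatives in 5 of 11 comparisons. For PMNs against TECs after sham surgery it was 2 to 4 (reported 3). The others were RIPC in sham TECs, sham PMNs and IRI PMNs, and RIPC by surgery in PMNs, where the count was 0 throughout. In each of those at most 1 of all genes tested was called by edgeR, so a count of 0 was likely. After IRI in TECs (reported 1), it was 0 in the control groups alone, in the RIPC groups alone and in 1 fit to both cell types. It was 2, Ctsa with Ctsh, with no filter on low counts, with at least 10 reads in every library, with robust dispersion and with the DESeq2 Wald test. It was 3 with both TECs libraries that stand apart left out, a setting chosen after seeing the data, and 0 to 3 with 1 library left out, where the 3 without TECs IRI RIPC replicate 3 were Ctsa, Ctsh and Ctsz. After IRI in PMNs (reported 1), it was 0 in the control groups alone and in the RIPC groups alone, and 2, Cst3 with Ctsl, with DESeq2 size factors, at least 10 reads in every library, an offset for transcript length, robust dispersion, the first or the second file alone and the DESeq2 Wald test. It was 3 with no filter on low counts, adding Ctsd, and 0 to 1 with 1 library left out, 0 for 7 of the 10 libraries. After RIPC in IRI TECs, and for RIPC by surgery in TECs (reported 0), DESeq2 gave 1 member, Ctss, by the Wald test, and also with apeglm in the former. For PMNs against TECs after IRI (reported 5), the DESeq2 Wald test gave 8, and leaving out 1 library gave 1 to 5. For the difference of the IRI effect between cell types (reported 0), at least 10 reads in every library and the DESeq2 Wald test each gave 3. Of the other lysosomal genes, the count called after IRI in TECs (reported 3) was 2 to 6 with 1 library left out and 0 to 10 otherwise, highest with the DESeq2 Wald test. For PMNs against TECs it was 7 to 11 and 8 to 21 after sham (reported 10), and 5 to 12 and 8 to 23 after IRI (reported 7). The cause of these changes was not tested, beyond fewer libraries where they were left out. No member with an unadjusted p under 0.05 changed sign under any alternative. Those results were selected by p in the same data and most alternatives share most libraries, so a constant sign was likely. Ctss after IRI in TECs, at an unadjusted p of 0.0516 by edgeR, was outside that selection. Its difference was negative in the control groups alone and positive in the RIPC groups alone.

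With the replicate number as a block, the count of members called after IRI in PMNs went from 1 to 0, and no other count of members left 1.5 times of the reported value. The numbers do not pair the libraries: same-numbered libraries of different groups had deviations correlated at -0.04 to 0.05 in PMNs and -0.16 to 0.19 in TECs, with 0 of 13 and 2 of 15 pairs over 0.1, and 3 of 10 and 3 of 11 libraries correlated best with their own number.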

Other observations

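Legumain was read from the same transcripts in both cell types, in different estimated proportions. Lgmn-202 held 27.6 to 56.7% of the estimated Lgmn reads in the 10 PMN libraries and 56.9 to 76.2% in the 11 TEC libraries, and Lgmn-201 held most of the rest, at 43.3 to 72.2% and 23.5 to 43.1%. Both are annotated as protein coding. The ranges of Lgmn-202 do not overlap, although their ends nearly meet, and the split of short reads between transcripts is an estimate. For Ctsh, the transcript Ctsh-202, annotated as a target of nonsense-mediated decay, held a median of 67.8% of reads in PMNs and 72.9% in TECs. For Ctsb, the retained-intron transcript Ctsb-202 held 13.1 to 20.6% of reads in all 21 libraries. Ctsa, Ctsd, Ctsl, Ctsz and Cst3 were each read mainly from 1 transcript of the same name in both cell types.

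The genes whose log2 CPM followed a member most closely over all 21 libraries, as a description in which the libraries share their cell type, were Wfdc17 and Ccl4 for Ctss (Pearson r 0.97 for both), Ccl12 and Aif1 for Cst3 (0.93 for both), Hspa5 and Gm2a for Ctsa (0.91 and 0.86), Resf1 and Anxa11 for Ctsd (0.91 for both), C1qb and Ms4a6c for Ctsc (0.89 and 0.86), Psap and Scnn1a for Ctsz (0.88 and 0.87), Ier2 and Ppm1m for Ctsb (0.88 and 0.83), Npm1 and Psmd11 for Ctsl (0.87 for both), Ctsz and Pycard for Ctsh (0.86 and 0.85), and Fam114a2 and Rnf6 for Lgmn (0.79 and 0.78). Lgmn had the loosest companions of the 10. Within the 10 PMN libraries, Cst3 and Ctsl had a Pearson r of -0.83 and Cst3 and Ctsd of -0.60, values that hold both surgeries.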
